A study of Mus musculus with 2 samples.

Results

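Fibro-adipogenic progenitors are the resident fibroblast-like cells of skeletal muscle, and the RNA of 10 genes that mark them was followed here in adult mouse gastrocnemius. The members were taken by symbol, namely Pdgfra, Pi16, Dpp4, Gsn, Dcn, Dpt, Clec3b, Ly6a, Fbn1 and Smoc2, and each matched 1 of the 55536 genes tabulated. Total RNA was sequenced from the gastrocnemius, a calf muscle of mainly fast fibres,, taken at 2 months of age from male B6CASTF1/J mice. This strain name stands for the F1 cross of B6 with the wild-derived CAST strain, and the labels name no engineered allele and no treatment. The single group holds 2 libraries, numbered as biological replicates 1 and 2, each from 300 ng of RNA with ERCC spike-ins. The labels list separate tissue samples under the same donor entry and do not say outright that the animals were different, so a difference between the libraries is a spread between samples that may be partly technical.

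These progenitors lie between the muscle fibres and along vessels. They are known to build matrix, to help satellite cells after injury, and to form fat or scar when regeneration fails, and they are commonly isolated by the surface proteins encoded by Pdgfra and Ly6a. In fibroblasts of many mouse tissues, Pi16 and Dpp4 mark a stem-like population held in the outer connective tissue. Gsn, Dcn, Dpt, Clec3b, Fbn1 and Smoc2 encode secreted or matrix proteins that these cells make in quantity, though other cells use several of them. In whole muscle, fewer cells of a type and less RNA per cell cannot be told apart.

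Each library came with gene and transcript tables in the layout of RSEM, called the first tables, and with a transcript table in the layout of kallisto, called the second tables. Expected counts over genes summed to 42724520 in replicate 1 and 42280091 in replicate 2. Levels are in TPM, a share of all transcripts that corrects for length, and are given from the first tables unless the second are named. Ratios were taken as replicate 2 over replicate 1 on scaled counts. Their 95% intervals, like all intervals here, cover counting error only, and with 1 library on each side they carry no p-value.

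Gsn encodes gelsolin, an actin-severing protein with an intracellular form and a secreted form that differ at their first amino acids. The gene lies at chr2:35256380-35307892 on the plus strand (mm10, GRCm38). The coding starts below are shown because the 2 kinds of table disagreed on which of them the reads came from. They were read from the GENCODE M21 transcripts, with bases of the transcript's own exon in capitals and the first bases of the exon shared by these transcripts in lower case. Gsn-201, the transcript with the longest annotated coding sequence (2340 nt), opens with 138 coding nt of its own at chr2:35282464-35282601.
Gsn-201: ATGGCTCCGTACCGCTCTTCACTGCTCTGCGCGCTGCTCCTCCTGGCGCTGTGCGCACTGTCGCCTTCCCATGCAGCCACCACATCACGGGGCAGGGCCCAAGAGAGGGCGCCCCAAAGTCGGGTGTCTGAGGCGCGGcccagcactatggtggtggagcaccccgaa
Gsn-207: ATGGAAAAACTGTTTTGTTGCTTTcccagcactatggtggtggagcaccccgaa
Gsn-205: atggtggtggagcaccccgaa
Gsn-207 has 24 coding nt of its own, at chr2:35282698-35282721. Gsn-205 starts its coding sequence inside the shared exon, at chr2:35283914, and has a coding length of 2193 nt.

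Gsn-205 and Gsn-207 begin about 26 kb upstream of Gsn-201, at a different promoter. Both promoter windows are shown for that reason, from RefSeq on GRCm38.p6, each covering 250 bases before and 50 after an annotated start, plus strand. Capitals mark matches, on either strand, to the GC box GGGCGG or to CCAAT.
Gsn upstream window, chr2:35256109-35256408: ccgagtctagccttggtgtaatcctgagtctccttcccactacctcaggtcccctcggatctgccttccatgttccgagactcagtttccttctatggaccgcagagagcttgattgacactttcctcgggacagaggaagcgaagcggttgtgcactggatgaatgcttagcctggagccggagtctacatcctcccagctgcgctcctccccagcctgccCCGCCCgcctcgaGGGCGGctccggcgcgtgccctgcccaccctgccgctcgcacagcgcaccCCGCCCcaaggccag
Gsn downstream window, chr2:35282130-35282429: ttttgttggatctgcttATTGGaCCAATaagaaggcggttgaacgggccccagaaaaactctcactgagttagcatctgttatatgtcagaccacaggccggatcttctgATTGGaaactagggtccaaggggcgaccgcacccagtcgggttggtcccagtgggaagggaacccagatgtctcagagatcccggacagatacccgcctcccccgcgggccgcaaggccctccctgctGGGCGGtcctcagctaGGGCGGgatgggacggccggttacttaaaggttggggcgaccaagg
The upstream window held 3 GC boxes and no CCAAT, and the downstream window 2 GC boxes and 3 CCAAT. Of all 32851 RefSeq windows of this length, 35.7% held GGGCGG, 37.4% CCAAT and 13.6% TATAAA. RefSeq windows matched 6 of the 10 members, with 8 windows in all, of which 4 held GGGCGG, 3 CCAAT and 2 TATAAA. These include another Gsn window, chr2:35266494-35266793, not shown, with 1 GC box and 1 CCAAT. Gsn thus supplied most of the windows with GGGCGG and with CCAAT.

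As the most abundant member, Gsn stood at 265 TPM in replicate 1 against 137 TPM in replicate 2, a mean of 201 ± 90.8 (SD, n = 2). It ranked at place 293 among 11108 genes with a mean TPM of 1 or more and made up 56.5% and 46.9% of the members' summed TPM in replicates 1 and 2. The library ratio was 1.87-fold in favour of replicate 1 (interval 1.83 to 1.92) on 23106 and 11918 expected counts. In the second tables the gene was at 397 and 197 TPM, so both kinds of table put replicate 1 higher.

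The form of gelsolin RNA reported depended on the table. In the first tables Gsn-201, the form with the start of the secreted protein, took 97.9% of Gsn TPM in replicate 1 and 97.4% in replicate 2, or 97.6 ± 0.345% (SD, n = 2). In the second tables it took 40.5% and 32.3%. Gsn-205, whose coding sequence lacks that start, went the other way, from 1.25% and 1.70% in the first tables to 38.7% and 49.7% in the second, and Gsn-207 from 0.0566% and 0% to 20.3% and 17.2%. Stretches of 100 nt found in no other annotated transcript made up 5.29% of those in Gsn-201 (135 of 2554) and 3.99% of those in Gsn-205. Within the first tables the reads given to Gsn-201, 22770 and 11694, had posterior SDs of 81.5 and 84.1, far below the gap between the tables. The cause of that gap was not tested, and no share of secreted against intracellular gelsolin RNA is given as a finding.

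**Figure D1:**
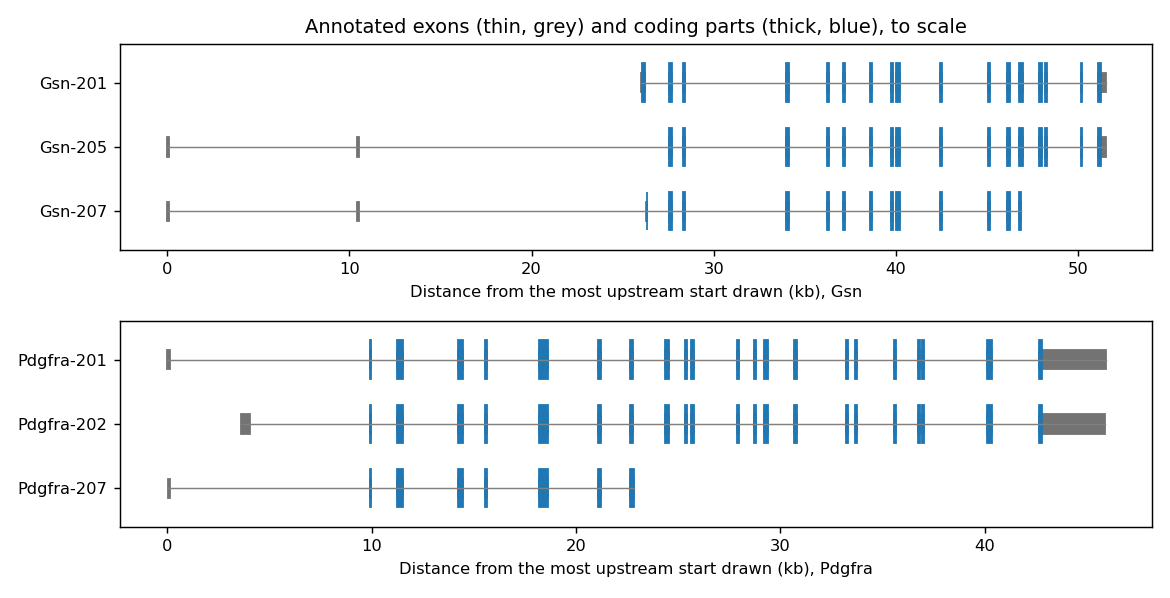
Annotated exons (thin grey boxes) and coding parts (thick blue boxes) of 3 Gsn and 3 Pdgfra transcripts, drawn to scale against the distance in kb from the most upstream start drawn. Gsn-205 and Gsn-207 start about 26 kb before Gsn-201 and share most coding exons with it, and Pdgfra-207 stops after 8 coding exons of the 22 in Pdgfra-201 and Pdgfra-202.

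The surface markers were far less abundant than Gsn. Pdgfra, the receptor for PDGF ligands that defines these cells, was at 6.50 TPM in replicate 1 against 4.27 TPM in replicate 2, a mean of 5.38 ± 1.58 (SD, n = 2). Its fold of 1.48 toward replicate 1 (interval 1.35 to 1.63) lay just under the 1.5-fold used here to call a difference. With DESeq2 size factors or with TPM ratios in place of scaled counts, Pdgfra was past it.

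Pdgfra RNA was spread over several annotated transcripts. The full-length forms Pdgfra-201 and Pdgfra-202 encode the same 3267 nt from different first exons. They took 57.5% and 8.62% of Pdgfra TPM in replicate 1 and 51.6% and 12.4% in replicate 2, against 42.4% and 20.7% and then 37.9% and 20.7% in the second tables. Pdgfra-207, annotated without a stop codon, ends inside an intron after 8 coding exons. Its 3' end is shown because the short form can be told from the receptor mRNA by that end alone, with the last 30 bases of the shared exon in lower case and its own 79 bases in capitals (GENCODE M21, chr5:75175042-75175150, plus strand).
Pdgfra-207: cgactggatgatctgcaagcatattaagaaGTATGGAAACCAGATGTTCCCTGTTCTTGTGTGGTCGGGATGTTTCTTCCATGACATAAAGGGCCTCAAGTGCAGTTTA
It was given 20.2% of Pdgfra TPM in replicate 1 and 30.1% in replicate 2, and 11.4% and 12.9% in the second tables. Those first shares rest on 66.0 and 64.7 estimated reads, with posterior SDs of 16.8 and 13.1. In the first tables nearly as many reads thus stood in both libraries, while the reads of the whole gene went from 1069 to 697. In the second tables Pdgfra-207 had 37.8 reads in replicate 1 and 30.1 in replicate 2. Pdgfra-209, a short annotated fragment, held 3.08% and 0% in the first tables and 14.7% and 20.4% in the second, on 11.0 and 10.8 reads.

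Ly6a, which encodes the surface protein Sca-1, was at 22.1 TPM in replicate 1 against 22.8 TPM in replicate 2, a mean of 22.5 ± 0.488 (SD, n = 2). It was the 1 member with a ratio above 0, and its log2 ratio of 0.06 had an interval of -0.12 to 0.24. The coding sequence of Ly6a-201 (402 nt) was 81.8% identical to that of Ly6c1-201, 81.6% to Ly6c2-201 and 52.7% to Ly6e-201, which are relatives in the same family. Of the 1311 stretches of 100 nt in Ly6a transcripts, 19 (1.45%) also occur in Ly6c1 transcripts, and for the other 9 members there were 0 shared with another gene. Only the same strand was compared, so sequence shared with transcripts of the opposite strand was not counted. Ly6c1 was at 52.4 and 53.2 TPM in replicates 1 and 2, and Ly6e at 16.0 ± 1.41 TPM (SD, n = 2). Endothelial cells of mouse tissues also express Ly6a and Ly6c1.

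The transcripts of Ly6a that carry its 402-nt coding sequence differ outside it, and the tables split them differently. Ly6a-201 took 64.0% and 68.9% in the first tables and 31.2% and 26.3% in the second. Ly6a-204 took 5.06% and 9.64%, then 46.9% and 51.4%. A split among transcripts with the same coding sequence does not change it. Ly6a-201 holds 0 stretches of 100 nt of its own, so the split is not read further. Ly6a-205 held between 2.50% and 17.4% and the fragment Ly6a-206 between 4.70% and 14.8%.

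Pi16, a peptidase-inhibitor family protein anchored at the cell surface, showed the widest gap of the 10 genes. Its level was 8.58 TPM in replicate 1 and 3.24 TPM in replicate 2, a mean of 5.91 ± 3.78 (SD, n = 2), and the fold was 2.30 (interval 1.98 to 2.67) on 606 and 255 counts. In the second tables the levels were 11.9 and 4.10 TPM and the fold 2.32. Replicate 1 was the higher library on both.

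Pi16 has a short and a long coding form. They part where 1 exon either ends or runs on for 687 coding nt (229 codons), at chr17:29326947-29327633 on the plus strand. The junction is shown with the last 30 bases common to both in lower case and the first 30 that follow in each form in capitals (GENCODE M21, GRCm38).
Pi16-201: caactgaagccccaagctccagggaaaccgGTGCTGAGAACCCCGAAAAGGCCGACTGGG
Pi16-202: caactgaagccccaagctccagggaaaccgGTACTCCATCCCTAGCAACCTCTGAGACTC
The short form Pi16-201 held 51.2% of Pi16 TPM in replicate 1 and 39.2% in replicate 2, and the long form Pi16-202 held 13.0% and 16.0%. The second tables gave 37.5% and 23.0% to the short form and 9.74% and 13.9% to the long form. The short form was thus given more TPM than the long in both libraries and both tables. In estimated reads, which are not corrected for length, the long form had fewer than the short in replicate 1 of the first tables (148 against 173) and more in replicate 2, where it had 69.1. In the second tables it had more in both libraries, with 120 against 114 in replicate 1 and 61.2 against a lower number in replicate 2. Pi16-201 holds 0 stretches of 100 nt of its own among 1145, so the balance of the forms is not read further. The rest was mostly Pi16-203, an annotated transcript that keeps introns, with 31.3% and 40.1% in the first tables and 47.3% and 56.9% in the second.

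Dpp4, a surface protease that trims dipeptides from peptide hormones and chemokines, was the rarest member. It was at 1.82 TPM in replicate 1 against 0.970 TPM in replicate 2, a mean of 1.40 ± 0.601 (SD, n = 2), from 127 and 59 counts. The fold toward replicate 1 was 2.07, with a wide interval of 1.52 to 2.88, and 1.94 in the second tables.

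In the first tables most Dpp4 TPM sat on short transcripts with very few reads. Dpp4-201, the transcript with the full coding sequence, held 113 of 127 reads in replicate 1 and 46.8 of 59 in replicate 2, yet 35.0% and 27.1% of TPM, since TPM weighs a read by transcript length. In the second tables Dpp4-201 held 51.1% in replicate 1 and 28.2% in replicate 2. Retained-intron transcripts made up 60.6% and 59.4% of Dpp4 TPM (48.9% and 61.7% in the second tables), resting on the few reads outside Dpp4-201. In the first tables this was above the share in 98.1% and 98.2% of the 6197 protein-coding genes compared, whose median was 6.85% and 5.87%. In the second tables it was above that of 95.7% and 98.2% of genes. For Pi16 the retained-intron share was above that of 89.3% and 94.2% of genes in the first tables, and of 95.2% and 97.7% in the second. Among the other members with such a transcript it ranged, in the first tables, from 0.451% for Dcn in replicate 1 to 8.17% for Fbn1 in the same library.

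**Figure D2:**
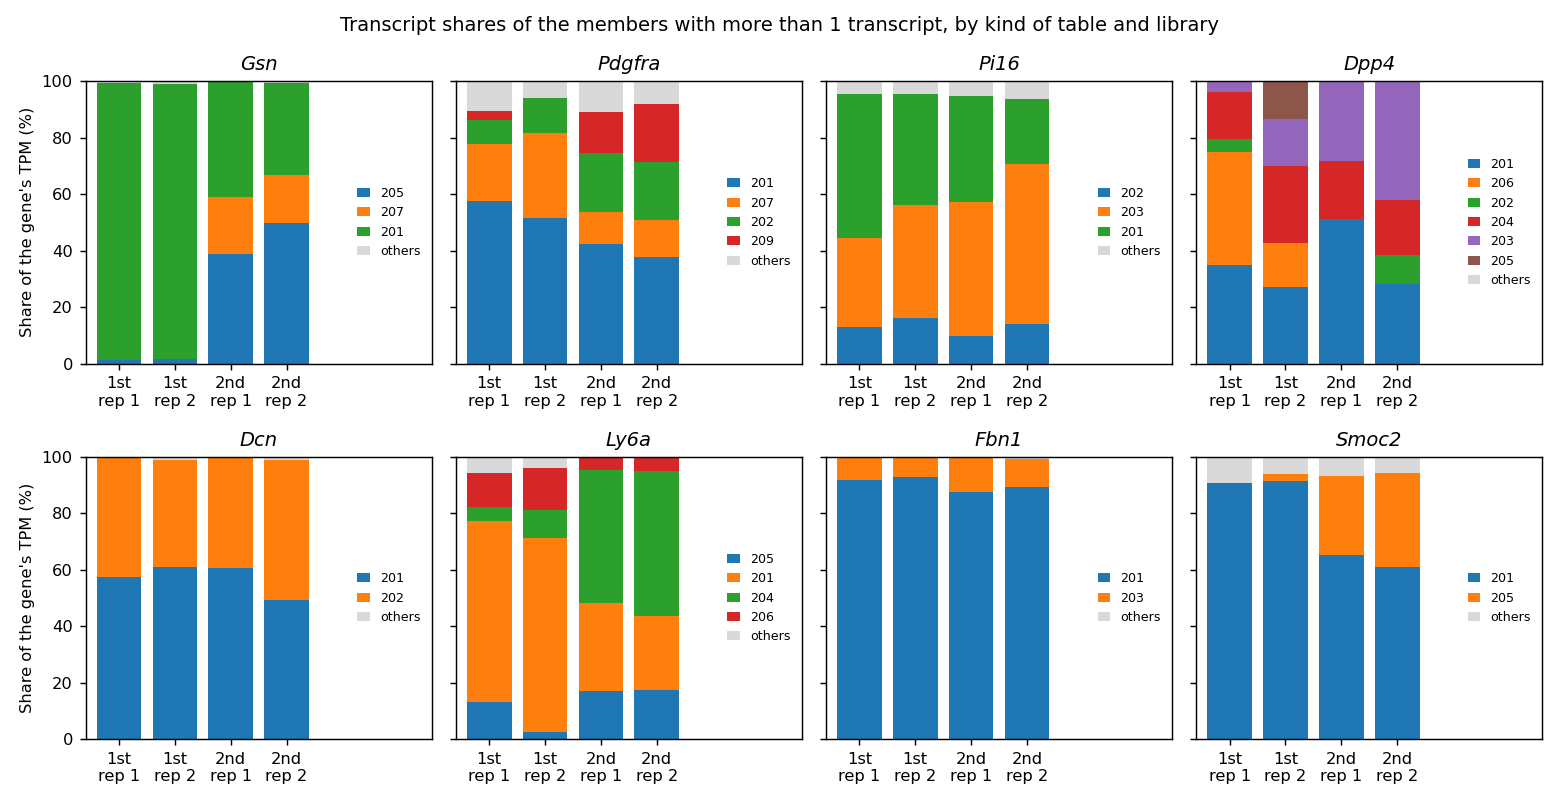
Share of each gene's TPM (%, vertical axis) held by its transcripts, for the 8 members with more than 1 transcript, with a bar for each kind of table (1st, 2nd) and library (rep 1, rep 2). Colours stand for transcripts with at least 10% in any bar, plus grey for the others. The leading transcript of Fbn1 holds 87.6% to 92.8% in each bar. From the first to the second tables, that of Gsn goes from 97.9% to 40.5% in replicate 1 and from 97.4% to 32.3% in replicate 2.

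The matrix genes were led by Dcn, which encodes decorin, a small proteoglycan on collagen fibrils. Dcn was at 106 TPM in replicate 1 against 87.4 TPM in replicate 2, a mean of 96.9 ± 13.5 (SD, n = 2), place 596 by mean TPM. The libraries differed by 1.19-fold (interval 1.14 to 1.23), which is more than counting error and less than the 1.5-fold called. Dcn-201 and Dcn-202 share a coding sequence of 1062 nt and differ in the first exon. Dcn-201 took 57.6% and 61.1% and Dcn-202 41.9% and 37.7% in the first tables, while in the second they took 60.7% and 49.4% against 38.7% and 49.4%.

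Dpt encodes dermatopontin, a small matrix protein that binds decorin. It was at 16.7 TPM in replicate 1 against 8.70 TPM in replicate 2, a mean of 12.7 ± 5.64 (SD, n = 2), with a fold of 1.85 (interval 1.66 to 2.07). Dpt has 1 annotated transcript, so no choice between forms enters its value. Unlike Dcn, its partner in the matrix, it was past 1.5-fold.

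Fbn1 encodes fibrillin-1, the main protein of microfibrils. It was at 13.0 TPM in replicate 1 against 7.09 TPM in replicate 2, with an SD of 4.16 (n = 2). Long transcripts gave it 4058 and 2237 counts, so its fold of 1.75 had a narrow interval of 1.67 to 1.85. Fbn1-201, with 65 coding exons, held 91.7% and 92.8% of its TPM, and the retained-intron transcript Fbn1-203 8.17% and 7.19%.

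Smoc2, a matricellular calcium-binding protein of the SPARC family, was at 15.9 TPM in replicate 1 against 12.8 TPM in replicate 2, a mean of 14.4 ± 2.18 (SD, n = 2). Its fold of 1.20 (interval 1.11 to 1.30) was close to that of Dcn. Smoc2 moved most between the kinds of table, to 30.2 and 24.7 TPM, 1.91 times its first level, where the median protein-coding gene moved 1.46 times. There the short noncoding transcript Smoc2-205 took 28.1% and 33.3% of Smoc2 TPM, against 0% and 2.49% in the first tables, and Smoc2-201 took 65.1% and 61.1%, against 90.6% and 91.3%.

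Clec3b encodes tetranectin, a secreted plasminogen-binding lectin-like protein, from 1 annotated transcript. It was at 13.1 TPM in replicate 1 against 7.36 TPM in replicate 2, a mean of 10.2 ± 4.09 (SD, n = 2). Its fold of 1.72 was the nearest inside the 1.5-fold limit, and its interval of 1.46 to 2.04 reached below that limit.

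**Figure D3:**
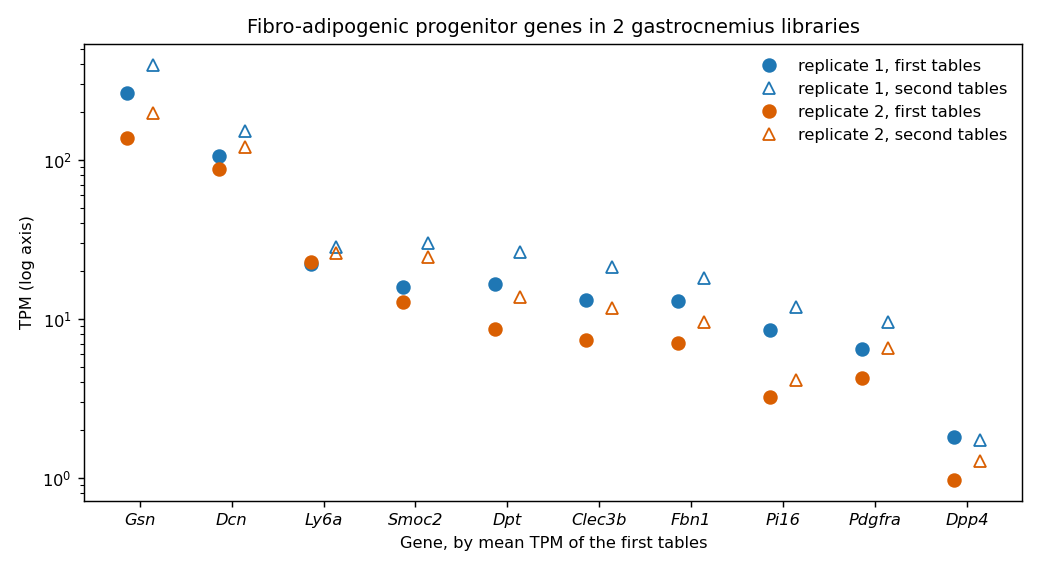
TPM of the 10 members (log axis) in replicate 1 (blue) and replicate 2 (orange), with filled circles for the first tables and open triangles for the second, ordered by mean TPM of the first tables. Gsn at 265 and 137 TPM and Dcn at 106 and 87.4 TPM stand above the rest, and Dpp4 at 1.82 and 0.970 TPM below.

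By mean TPM the order was Gsn, Dcn, Ly6a, Smoc2, Dpt, Clec3b, Fbn1, Pi16, Pdgfra and Dpp4. The library ranges of neighbours were apart between Gsn and Dcn, Dcn and Ly6a, Ly6a and Smoc2, and Pdgfra and Dpp4. From Smoc2 to Pdgfra each gene's range overlapped that of the next, so their order is not resolved by these libraries. The order of Smoc2 and Dpt and that of Pi16 and Pdgfra differed between the libraries, and the second tables put Smoc2 above Ly6a. Together the members reached 469 TPM in replicate 1 against 291 TPM in replicate 2, a mean of 380 ± 126 (SD, n = 2), and without Gsn 204 and 155 TPM. That sum was 0.0994% and 0.0630% of the TPM of protein-coding genes.

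Replicate 1 held more RNA of most members. Of 10 members, 9 had a log2 ratio below 0 and 6 were at least 1.5-fold higher in replicate 1, namely Pi16, Dpp4, Gsn, Dpt, Clec3b and Fbn1. The same fold in that direction was passed by 6.02% of the 14827 genes whose counts summed to 20 or more, and by 1.65% of the 10054 genes whose counts summed to 200 or more. In the other direction 0 members and 6.55% of genes passed, and 12.6% of genes passed in either. The members' median log2 ratio was -0.80, or 1.74-fold higher in replicate 1, where the median of the genes tested was 0.00 with quartiles of -0.16 and 0.18. Past 2-fold were Pi16 and Dpp4, and 1.83% of genes.

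The members did not move by 1 common factor. Ratios ran from -1.20 for Pi16 to 0.06 for Ly6a, and the intervals of Dcn (-0.30 to -0.19), Smoc2 (-0.38 to -0.15) and Ly6a lay apart from those of the 6 genes past 1.5-fold. Gsn, the most abundant member, and Dpp4, the least, were both among the 6. The second tables called the 6 also, with a median of -0.75, while 6.50% of their 15883 genes passed in that direction.

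**Figure D4:**
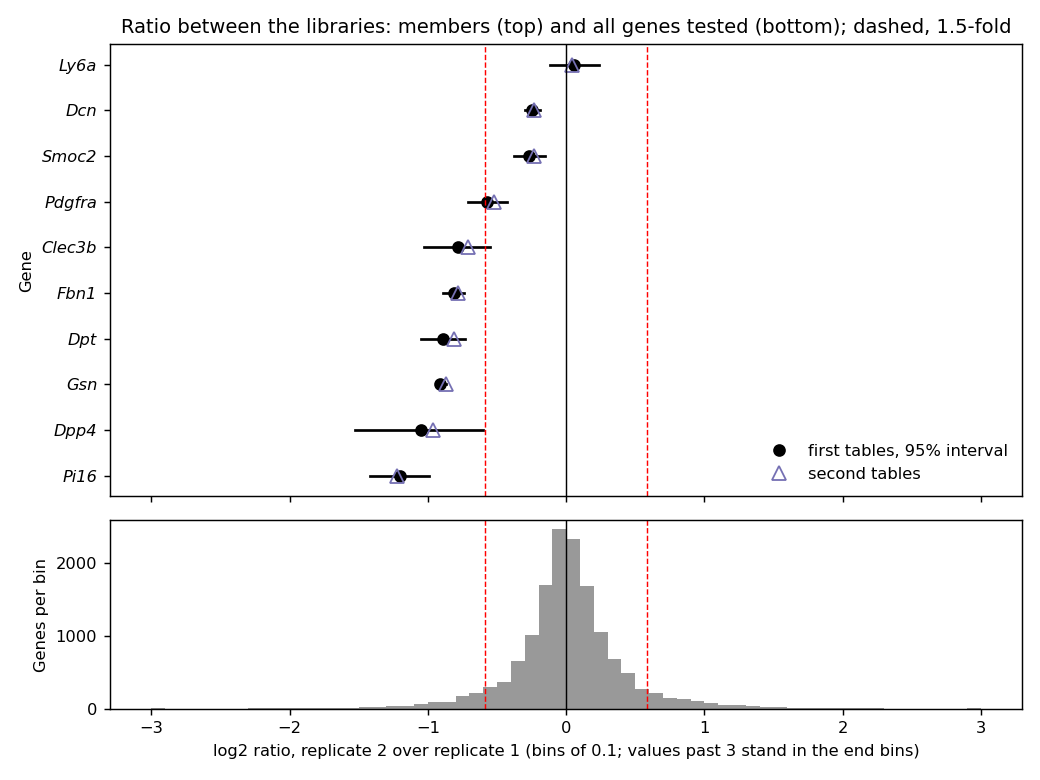
Top, log2 ratio of replicate 2 over replicate 1 for each member, with 95% counting intervals (first tables, circles) and the second tables' values (triangles); bottom, the same ratio for all 14827 genes tested, in bins of 0.1, with dashed lines at 1.5-fold. The members spread from -1.20 for Pi16 to 0.06 for Ly6a, and 9 of them lie left of 0.

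Genes around the members were followed in lists. The counts in these lists stand beside 6.02% of all 14827 genes tested past 1.5-fold toward replicate 1 and 6.55% toward replicate 2. In the PDGF pathway 0 of 5 genes passed 1.5-fold in either direction, and the median was 0.00. The ligand Pdgfa was at 10.7 and 8.57 TPM in replicates 1 and 2, and Pdgfrb, the receptor of mural cells, at 6.10 and 6.18 TPM, with a log2 ratio of 0.07 (interval -0.05 to 0.19). Of 17 partners of fibrillin microfibrils 1 passed, with a median of 0.08. That gene was Efemp1, a fibulin, with a log2 ratio of -1.16, named here after its value was seen. The latent TGF-beta binding protein Ltbp4 was at 18.8 and 18.1 TPM and the fibulin Fbln2 at 17.1 and 16.2 TPM. Their log2 ratios were -0.07 and -0.11, beside -0.81 for Fbn1.

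Of 25 other fibroblast and progenitor genes tested, 20 were below 0 and 5 passed toward replicate 1. Over all genes tested the median log2 ratio was 0.00, and 6.02% passed toward replicate 1. Those 5, named after their values were seen, were Procr (-1.27), C3 (-1.07), Cd248 (-0.85), Fn1 (-0.63) and Cd55 (-0.61), and the list's median log2 ratio was -0.28. The lipoprotein lipase gene Lpl, which muscle fibres also express, passed toward replicate 2, at 123 TPM in replicate 1 against 342 TPM in replicate 2. Of 11 transcription factors of these cells 2 passed toward replicate 1, Osr1 and Gli1, both below a mean of 1 TPM and named after their values were seen, and the median was -0.18. The most abundant factor, the mesenchymal homeobox gene Prrx1, was at 11.6 and 13.1 TPM, and Meox2 at 3.76 and 3.73 TPM. Of 10 secreted support factors 1 passed toward replicate 1 and 2 toward replicate 2. The chemokine Cxcl12 was at 16.2 and 17.0 TPM and Igf1 at 7.40 and 6.19 TPM.

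Genes of scar and fat, the fates these cells can take, went both ways. Over all genes tested 6.02% passed 1.5-fold toward replicate 1 and 6.55% toward replicate 2. Of 13 fibrogenic genes 2 passed toward replicate 1 and 3 toward replicate 2, with a median of 0.00. Col1a1, a fibrillar collagen chain, was at 60.5 and 88.0 TPM, higher in replicate 2, while Sparc was at 108 and 112 TPM. Col3a1, named after its value was seen, was at 54.4 TPM in replicate 1 against 30.2 TPM in replicate 2, so the collagens split. Of 9 adipogenic genes 4 passed toward replicate 1 and 1 toward replicate 2, with a median of -0.08. Fabp4, which endothelium also expresses, led at 55.0 and 65.8 TPM, with Lipe at 5.27 and 6.23 TPM. The 4 were Cfd, Adipoq, Plin1 and Cidec, named after their values were seen. The adipocyte genes Adipoq and Plin1 had means of 0.280 and 0.220 TPM, and Cidec 0.290 TPM. The log2 intervals of these low genes included 0 (-2.84 to 0.30, -2.15 to 0.30 and -2.08 to 0.23). That of Cfd was -1.25 to -0.42.

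Markers of other cells differed between the libraries too. Their counts stand beside the same shares of all genes, 6.02% past 1.5-fold toward replicate 1 and 6.55% toward replicate 2. Tendon markers, of which 10 of 10 reached a TPM of 1, had a summed level of 60.7 TPM in replicate 1 against 100 TPM in replicate 2, and 8 of 10 passed toward replicate 2, with a median of 0.89, Fmod at a log2 ratio of 0.90 and Thbs4 at 23.7 and 32.9 TPM. Slow fibre genes summed to 1257 and 3216 TPM, with 9 of 9 past 1.5-fold toward replicate 2, led by Myl2 at 304 and 800 TPM. Fast fibre genes summed to 76752 and 60935 TPM, with 9 of 10 below 0, a median of -0.27 and 0 past 1.5-fold toward replicate 1. The 1 that passed toward replicate 2 was the myosin heavy chain gene Myh1, named after its value was seen, at 575 and 1076 TPM. Higher members thus stood beside lower tendon and slow fibre RNA in replicate 1. The part of tendon or fibre content in the members' gap was not tested.

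Vessel, nerve, immune and satellite cell markers had medians nearer 0 than tendon or slow fibre genes. Endothelial markers summed to 88.9 and 90.7 TPM (median 0.16, 1 of 9 past 1.5-fold, toward replicate 2). Mural markers summed to 159 and 148 TPM (median 0.11, 1 of 9 past it, toward replicate 1). Macrophage markers summed to 28.9 and 24.6 TPM (median -0.04, 1 of 9 past it, toward replicate 2, with an interval that included 0). Schwann markers summed to 35.7 and 30.1 TPM and satellite cell markers to 43.6 and 39.1 TPM, with 0 of 7 and 0 of 8 past 1.5-fold. Lymphocyte markers were near absent, at 0.490 and 0.410 TPM summed, with 0 of 8 at a TPM of 1 and with 0 reads in either library for Cd3g, named after its values were seen. A count of 0 leaves room for 3 reads.

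**Figure D5:**
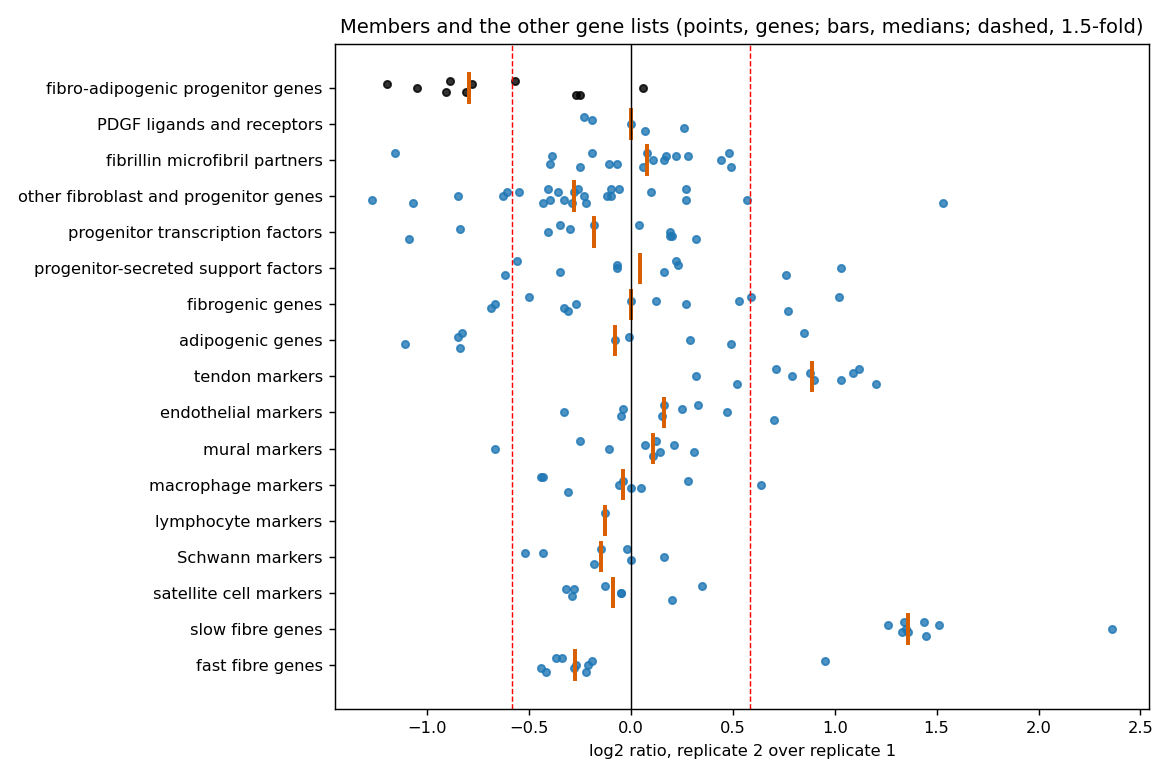
Log2 ratio of replicate 2 over replicate 1 for each gene tested (points) in the members' list and in 16 other lists, with list medians as orange bars and dashed lines at 1.5-fold. The members' median of -0.80 lies on the side of replicate 1, and the medians of tendon markers (0.89) and slow fibre genes (1.36) on the side of replicate 2.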

How the data were processed

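The authors deposited, for each library, gene and transcript tables of expected counts and TPM, with posterior means and SDs that were read as scores, per the file headers. They also deposited a second transcript table with estimated counts and TPM, which was summed to genes. The deposited notes give mm10 and GENCODE M21. Not given in the sources used here are the programs, their versions and any use of strand. Reads of CAST alleles met a B6-type reference. Effective length was 99 nt below length in the first tables and 343 or 338 nt below it in the second.

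Expected counts were rounded and scaled by TMM factors (edgeR 4.0.16, R 4.3.3), with 0.5 added. Genes whose counts summed to 20 or more were compared, and a difference was called at 1.5-fold. Intervals are exact Clopper-Pearson intervals at 95%. The ratio step was tested on simulated data that held counting error only, so spread between samples was not covered. A count of 0 allows up to 3 reads. The largest share of a member's count seen in an overlapping gene was 1.03% (Gm32569, antisense to Dpt, replicate 2). ERCC RNAs held 0.468% and 0.442% of counts and were left out of the ratios. Another 26249 entries naming no gene held 6 and 3 reads and were left out. Genes set in advance for naming were the members and, of each other list, the 2 with the highest mean TPM, plus Ly6c1, Ly6e and Pdgfrb. Not all of them are named for the fibre lists and the lists of other cells. Other genes whose levels or ratios are given are marked as chosen after their values were seen. Transcripts are named at 10% of a member's TPM in any library of either table. Members, lists and tests were chosen with earlier results of these data known. Alternatives were the second tables, DESeq2 1.42.0 size factors, spike-in scaling, TPM ratios and other filters, priors and folds.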

Additional observations from a re-analysis of the deposited data

How the results depend on the processing

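The members' summed TPM, 380 in the first tables, was 556 in the second tables and 812 when TPM was rescaled to protein-coding genes alone. With 1 replicate left out at a time it ran from 291 to 469. The share of Gsn-201 was 36.4% in the second tables, and 97.4% to 97.9% with 1 replicate left out at a time. The number of members past the limit was 6, and 2 at 2-fold. Under DESeq2 size factors and under TPM ratios it was 7, Pdgfra being added, and at a summed count of at least 200 it was 5 of 9 members, since Dpp4 was not tested there. The median log2 ratio ran from -0.85 (TPM ratios) to -0.75 (spike-in scale, second tables). In each of these settings 9 members lay below 0, or 8 of 9 where Dpp4 was not tested. The scalings moved the median of all genes by -0.05 to 0.05. In the second tables the levels of 7 of 10 members moved by more than the SD of the 2 libraries, a count not made over all genes. The members' second levels were 1.08 to 1.91 times the first, beside a median of 1.46 for protein-coding genes. The shares of 8 of 10 leading transcripts also moved by more than that SD, again a count not made over all genes. The other 2, those of Dpt and Clec3b, are the only annotated transcripts of their genes and were fixed at 100%. A small move could pass, as for Fbn1-201, whose share was 92.2% (SD 0.797) in the first tables and 88.4% in the second. The cause of these moves was not tested. No ratio can be given with a library left out. No paired analysis was possible because the series has 1 group. The precision of levels and ratios is limited by the 2 libraries, and for Dpp4 also by its 186 reads.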
